A study of Homo sapiens with 5 samples.

Results

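The transcripts described here are those of 54 genes of the G1/S transition and of DNA replication, out of 57773 gene rows in the table. They were chosen by name, as the rows whose gene symbol equals 1 of 54 listed symbols, and no measured value entered that rule. All 54 were found, and all 54 had a mean of at least 1 TPM over the libraries, the level that 14177 genes reached and over which every comparison across genes was made. TPM (a transcript's share of all transcripts, scaled to a fixed total per library) is a level per unit of transcript length, so that levels of different genes can be compared within a library.

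RNA came from HCT116 cells, an established line of human colorectal carcinoma, and the series states that the lines transfected were Dicer knockouts. Dicer cuts microRNA precursors into their mature form, so that a transfected mature microRNA meets little of the cell's own. There are 5 libraries, 1 for the negative control and 1 for each form of the microRNAs: let-7a as native and as methylated at 19A, and miR-17 as native and as methylated at 13A. With 1 library per group no difference has a replicate check, no p-value is given, and the spread between cultures is unknown. The labels state neither the kind of methyl group, the time after transfection nor whether the knockout was 1 clone, and sequencing depth is unknown because the table holds no counts.

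Before a cell can copy its genome, the origin recognition complex, CDC6 and CDT1 load rings of the MCM2-7 helicase onto DNA in G1, which is called licensing. At the start of S phase the kinase CDC7 with DBF4, together with CDC45, the GINS complex and MCM10, turns the loaded rings into moving helicases, and polymerases, the sliding clamp PCNA and its loader RFC follow. Many of these genes are transcribed by E2F factors, which the pocket proteins of the RB family restrain until cyclin and CDK activity releases them. The miR-17 family is known for targeting RBL2, CDKN1A and E2F1 in this circuit, and let-7 for targeting cell-cycle genes such as CDC25A and CDK6.

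The mature sequences below show what was transfected as far as RefSeq (GRCh38.p14) gives the human microRNAs; the oligonucleotides themselves are not given in the labels. Capitals mark the seed, bases 2 to 8 from the 5′ end, by which a microRNA pairs with a messenger RNA. The seeds of these microRNAs differ. Mature let-7a-5p is encoded at chr9:94175962-94175983 (plus strand), chr11:122146568-122146589 (minus strand) and chr22:46112752-46112773 (plus strand), and miR-17-5p at chr13:91350618-91350640 (plus strand). The base at position 19 of let-7a-5p and the base at position 13 of miR-17-5p are both A, and the labels 19A and 13A were read as those positions, outside the seed.
let-7a-5p: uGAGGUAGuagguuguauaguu
miR-17-5p: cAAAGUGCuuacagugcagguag

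A search for seed matches in the longest annotated 3′ UTR of each gene (GENCODE release 29) found a let-7a match in 5 of the 54 genes (9.26%) and in 20.2% of the 12136 genes searched among those tested. A miR-17 match was found in 15 of 54 (27.8%), against 32.4% of the genes searched. Those 15 were CCNE2, CDT1, CLSPN, GINS2, GINS4, MCM3, MCM4, ORC2, ORC6, POLD3, POLE, RPA2, RRM2, TIMELESS and TIPIN. They lay on both sides of the control with native miR-17, for example GINS2 above it and CCNE2 below it. The genes whose sites are printed below do not stand for that whole list. The median length of the longest 3′ UTR was 1190 bases for the 54 genes and 1602 bases for the genes searched. For let-7a the search took CTACCTC, pairing with the whole seed, or TACCTCA, pairing with all but its last base and followed by A. For miR-17 the same forms are GCACTTT, for the whole seed, or CACTTTA, for the shorter one, and a match to both in 1 place makes an 8mer. Sites of RRM2, the regulated subunit of ribonucleotide reductase, of RPA2, a subunit of the protein that coats single-stranded DNA, and of MCM3 are printed because these genes recur in the results; capitals mark the match.
RRM2, let-7a 8mer, bases 136 to 143 of a 3′ UTR of 2033: aaactgtgtagCTACCTCAcaaccagtcct
RRM2, miR-17 8mer, bases 377 to 384 of the same: atataaacctgGCACTTTAcaaacaaataa
RPA2, miR-17, bases 459 to 465 of 639: ctttcagaattGCACTTTcctgcttgtcat
MCM3, miR-17, bases 381 to 387 of 579: ttttctccagaGCACTTTggtctagactag

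Promoters were searched for a 7-letter form of the E2F motif (the letters TTCCCGC, the form TTCGCGC with another middle, the form TTGCCGC, and last the form TTGGCGC, on either strand, overlapping matches counted) from 250 bases before to 50 bases after each annotated start in the RefSeq table. Of the 47 genes with an entry, 35 (74.5%) held a match in at least 1 window, against 25.4% of 9480 genes tested that have an entry. By window the shares were 64.4% of 59 and 19.2% of 13890. Stretches of 100 bases before the start are printed for 5 genes that stand for different steps, with the matches in capitals (GRCh38.p14, written in the direction of transcription).
MCM6, chr2:135876509-135876608, minus strand: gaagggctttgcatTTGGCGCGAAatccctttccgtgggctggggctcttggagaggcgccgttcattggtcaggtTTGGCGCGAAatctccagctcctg
ORC1, chr1:52404430-52404529, minus strand: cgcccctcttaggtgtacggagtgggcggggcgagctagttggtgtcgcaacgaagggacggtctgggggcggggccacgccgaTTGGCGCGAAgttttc
CDT1, chr16:88803681-88803780, plus strand: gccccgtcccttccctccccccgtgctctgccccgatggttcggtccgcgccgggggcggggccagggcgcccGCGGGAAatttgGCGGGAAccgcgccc
PCNA, chr20:5126649-5126748, minus strand: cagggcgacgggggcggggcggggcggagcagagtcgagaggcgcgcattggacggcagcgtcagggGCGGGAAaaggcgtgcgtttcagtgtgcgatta
POLA1, chrX:24693743-24693842, plus strand: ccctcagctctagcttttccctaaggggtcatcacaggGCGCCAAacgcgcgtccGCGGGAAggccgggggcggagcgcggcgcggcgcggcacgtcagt

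Levels of the 54 genes spanned a wide range within each library. In the control they ran from 2.8 TPM for POLE2, a subunit of the leading-strand polymerase, to 166.3 TPM for PCNA, with a median of 16.65 TPM. Summed over the 54 genes, the control held 1607.7 TPM, the native and methylated let-7a libraries 1737.5 and 1600.5 TPM, and the native and methylated miR-17 libraries 1863.8 and 1880.2 TPM. Both miR-17 libraries therefore had the higher sums, and control and methylated let-7a the lower ones. Over the 5 libraries the highest level of a gene was between 1.07 times (TIMELESS) and 2.24 times (CCNE2) its lowest level.

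**Figure D1:**
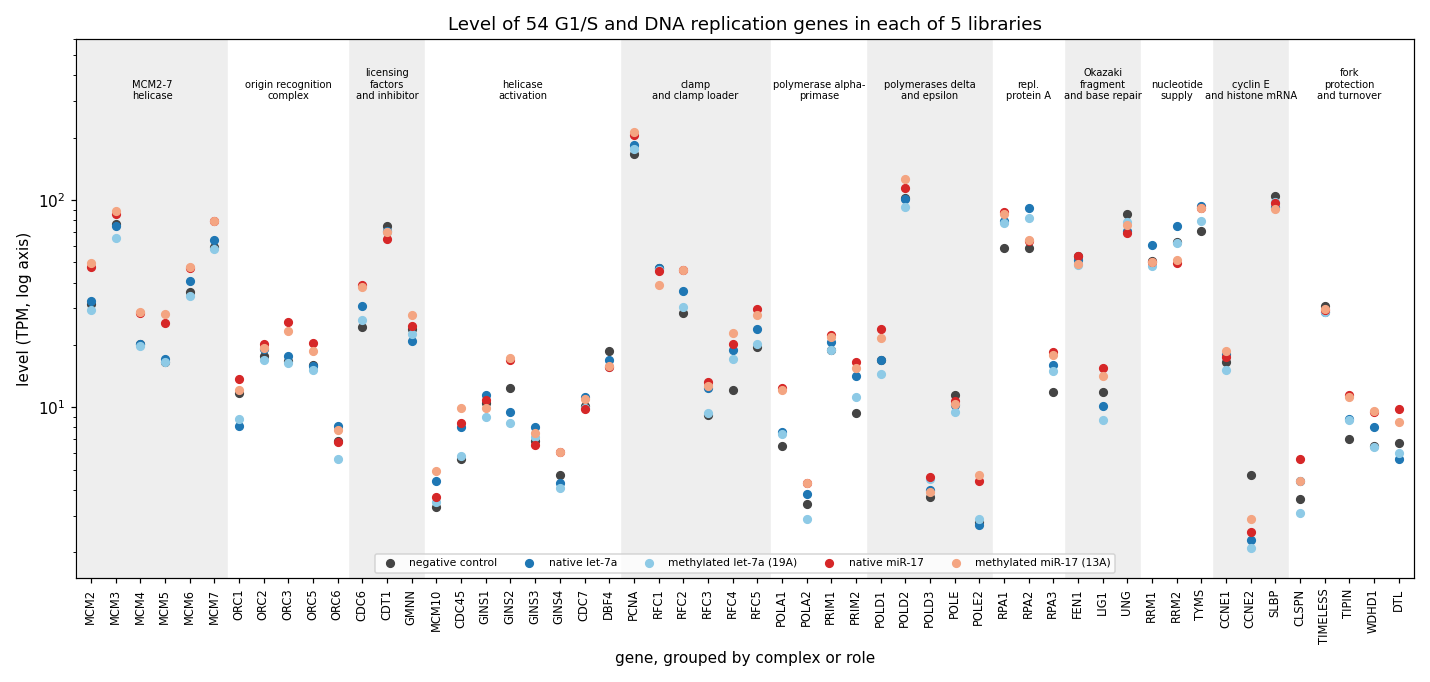
Level of each of the 54 genes in TPM on a log axis, 1 dot per library, with genes grouped by complex or role and shaded bands separating the groups. The miR-17 dots (red and orange) lie above the let-7a dots (blue) for all MCM2-7 genes, while PCNA has the highest level in all 5 libraries.

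Facts of the libraries that touch these values are few. Mitochondrially encoded transcripts held between 9.36% (methylated miR-17) and 12.6% (control) of all TPM, and with those genes taken out and the rest rescaled each median difference of the 54 genes moved by under 0.1 on the log2 scale. Epithelial markers summed to between 7169.9 and 8791.5 TPM over 7 genes, of which VIL1 was listed at 0 in all 5 libraries. That sum was 8518.7 and 8791.5 TPM with native and methylated miR-17 and at most 7572.4 TPM elsewhere, and its part in the miR-17 results was not tested. KRT8 and KRT18 carried that difference: KRT8 had 2855.6 and 2910.4 TPM with miR-17 against 1902.3 in the control, while KRT19 (2734.4 and 2901.9 against 3109.4 TPM) and CDX2 (8.8 TPM with the methylated form against 12.5 TPM) were lower with miR-17 than in the control. Blood and immune markers summed to 4.0 to 4.4 TPM over 5 genes, almost all of it LYZ, with PTPRC and HBB listed at 0. Fibroblast markers summed to 11.8 to 17.1 TPM over 5 genes, almost all of it COL1A1, with DCN listed at 0. Endothelial markers, of which 2 were found, summed to at most 0.8 TPM. Of the 54 genes, 7 share exonic bases on the same strand with another annotated gene (POLA2, PRIM1, POLD1, POLD3, FEN1, RRM2 and TIPIN), and how the authors assigned such reads is not given in the sources used here.

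Against the control, most of the 54 genes were higher in both miR-17 libraries. With native miR-17, 41 of 54 were higher and 13 lower, and the median difference of log2(TPM + 1) was 0.32, against 0.02 over all genes tested. With methylated miR-17, 42 were higher and 12 lower, with a median of 0.29 against -0.06 over all genes. In bulk RNA, a larger share of cells in S phase and more RNA per cell cannot be told apart. The same control library serves all of these comparisons, so they are not independent of each other. A rule of size, at least 1.5-fold in TPM + 1, was met upward by 9 of 54 genes with native miR-17 (16.7%, against a background of 6.67% of all genes tested) and by 10 with methylated miR-17 (18.5%, background 5.44%). Downward it was met by CCNE2 alone with native miR-17 (background 6.07%) and by 0 genes with methylated miR-17 (background 10.2%). No gene of the 54 reached 2-fold in TPM + 1 in any comparison.

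The let-7a libraries lay closer to the control. With native let-7a, 34 genes were higher and 19 lower, with a median of 0.12 against 0.0 over all genes; with methylated let-7a, 18 were higher and 34 lower, with a median of -0.04, the same to 2 decimals as that of all genes. Subtracting the median of all genes changed the split for methylated let-7a to 27 higher and 27 lower. RFC4 and RPA2 met the 1.5-fold rule upward with native let-7a (background 4.28%) and 0 genes did with methylated let-7a (background 3.39%). CCNE2 was the 1 gene that met it downward, in both (backgrounds 3.91% and 3.03%). These shares are close to or below the background.

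**Figure D2:**
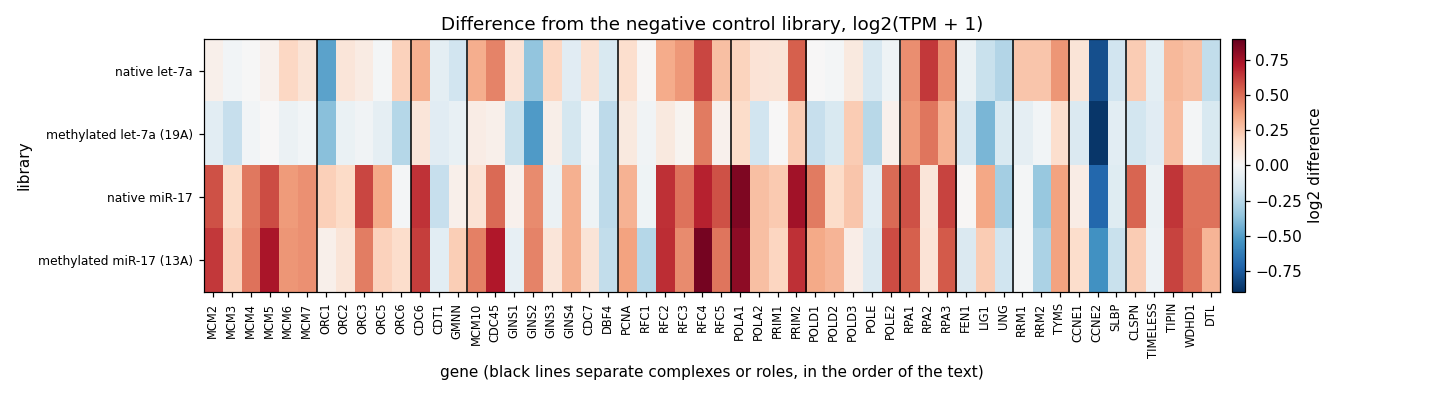
Difference from the control library in log2(TPM + 1) for each of the 54 genes (columns) in the 4 microRNA libraries (rows), red for higher and blue for lower, with black lines between complexes. The 2 miR-17 rows are red across the MCM2-7 and polymerase alpha-primase genes and the small RFC subunits, and CCNE2 is blue in all 4 rows.

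The MCM2-7 helicase, the ring that unwinds DNA, was higher with miR-17 in each of its 6 subunits, under the deposited scale and both other scalings tried. MCM5 had 16.6 TPM in the control, 17.1 with native and 16.6 with methylated let-7a, 25.4 with native and 28.3 with methylated miR-17. MCM2 had 31.5, 32.5, 29.4, 47.4 and 49.6 TPM in the same order of libraries. In both genes the 3 libraries without miR-17 lay together and both miR-17 libraries lay above them, by 1.5-fold with the native form and 1.66-fold with the methylated form over the control for MCM5 in TPM + 1. MCM3, with 76.3, 75.0, 65.8, 85.9 and 88.2 TPM, had the smallest difference of the 6 (1.12-fold with native miR-17). A miR-17 seed match was found in MCM3 and in MCM4, and MCM4 was 1.39-fold higher with native miR-17. No match was found in MCM6 (1.31-fold), MCM7 (1.33-fold), MCM2 (1.49-fold) and MCM5 (1.5-fold). The part of the matches was not tested. The median difference of the 6 from the control was 0.44 with native and 0.45 with methylated miR-17, but 0.04 and -0.04 with native and methylated let-7a. The subunits stand in equal numbers in the ring, yet their levels differed 4.6-fold in the control, from MCM5 to MCM3. That ratio was 3.38 with native and 3.12 with methylated miR-17.

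The origin recognition complex marks the sites where helicases are loaded. ORC3 had 16.7 TPM in the control, 17.6 and 16.3 with native and methylated let-7a, and 25.8 and 23.4 with native and methylated miR-17, a difference of 1.51-fold from the control with the native form. ORC6 had 6.9, 8.1, 5.6, 6.8 and 7.8 TPM in the same order, so its miR-17 and let-7a values overlapped. ORC1, the subunit whose amount varies over the cell cycle, had 11.7 TPM in the control, 8.1 and 8.8 with let-7a, and 13.7 and 12.1 with miR-17, which places the control between the let-7a and miR-17 libraries and near the lower of the miR-17 values. ORC2 and ORC5 were higher than both let-7a libraries in both miR-17 libraries, with log2 gaps of 0.12 and 0.32 between the means of the pairs.

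Among the licensing factors, CDC6, CDT1 and the CDT1 inhibitor geminin (GMNN) did not move together. CDC6, which helps load MCM rings at the origin, had 24.4 TPM in the control and 30.7 and 26.4 with native and methylated let-7a. It had 38.9 and 38.1 TPM with native and methylated miR-17. CDT1, its partner, had 75.2, 70.7, 70.0, 64.9 and 70.5 TPM, with the control highest. GMNN had 23.8, 21.0, 22.7, 24.6 and 27.9 TPM, with let-7a below the control and miR-17 above it. CDC6 was the single gene of this group past 1.5-fold, in both miR-17 libraries. The CDT1 promoter stretch printed above holds 2 E2F matches, and its 3′ UTR holds a miR-17 match. CDT1 was lower than the control in all 4 microRNA libraries, by 1.06 to 1.16 times in TPM + 1. The part of these features was not tested.

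Genes that activate the loaded helicase split between those higher with miR-17 and those that differed little. CDC45, which joins MCM2-7 and GINS in the active helicase, had 5.6 TPM in the control, 8.0 and 5.8 with native and methylated let-7a, and 8.4 and 9.9 with native and methylated miR-17. DBF4, the activator of the kinase CDC7, had 18.7, 16.9, 15.7, 15.7 and 15.9 TPM and was highest in the control. GINS2, singled out because it had the largest gap between the miR-17 and let-7a pairs of the 54 genes, had 12.4, 9.5, 8.4, 17.0 and 17.3 TPM. For GINS2 the control lies between the pairs, with let-7a 1.28 to 1.43 times lower than the control and miR-17 1.34 and 1.37 times higher, in TPM + 1. The other GINS subunits did not share one pattern, since GINS4 was higher with miR-17 (6.1 and 6.1 TPM against 4.7 in the control and 4.3 and 4.1 with let-7a), while GINS1 (9.0 to 11.5 TPM) and GINS3 (6.6 to 8.0 TPM) had overlapping pairs. MCM10 ranged from 3.3 TPM in the control to 4.9 TPM with methylated miR-17, and CDC7 from 9.8 to 11.2 TPM.

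The sliding clamp and its loader were below all 4 microRNA libraries in the control, except for RFC1. PCNA, the ring that tethers polymerases to DNA, had 166.3 TPM in the control, 185.1 and 176.9 with native and methylated let-7a, and 207.1 and 214.0 with native and methylated miR-17. RFC4, a small subunit of the loader, had 12.1, 18.9, 17.1, 20.2 and 22.8 TPM, and its difference with methylated miR-17, 1.82-fold, was the largest upward difference from the control of the 54 genes. RFC2 had 28.6, 36.4, 30.4, 45.8 and 46.0 TPM. RFC3 and RFC5, the other small subunits, were likewise higher with miR-17, with log2 differences of 0.49 and 0.58 with the native form. RFC1, the large subunit, had 46.8, 47.2, 45.8, 45.6 and 39.1 TPM and was 1 of 3 genes with both miR-17 libraries below both let-7a libraries.

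Polymerase alpha with primase starts each new DNA strand. POLA1, its catalytic subunit, had 6.5 TPM in the control, 7.6 and 7.4 with native and methylated let-7a, and 12.4 and 12.1 with native and methylated miR-17. PRIM2, the large primase subunit, had 9.4, 14.1, 11.2, 16.6 and 15.4 TPM, and PRIM1, the small one, had 18.9, 20.6, 18.9, 22.4 and 21.8 TPM. For POLA1 the let-7a libraries stayed near the control, while for PRIM2 native let-7a lay between the control and the miR-17 values. All 4 genes of the complex were higher than the control in both miR-17 libraries, with medians of 0.51 and 0.46. The 1.5-fold rule was met by POLA1 and PRIM2. PRIM1 shares exonic bases with NACA on its strand, so its values carry that limit.

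The polymerases delta and epsilon copy the lagging and leading strands. POLE2 had 2.8 TPM in the control, 2.7 and 2.9 with native and methylated let-7a, and 4.4 and 4.7 with native and methylated miR-17, so its let-7a values lay within 0.1 TPM of the control and its miR-17 values stood above. POLE, the catalytic subunit of epsilon, had 11.5, 10.3, 9.5, 10.7 and 10.4 TPM with the control highest. Among delta subunits, POLD1 had 23.8 and 21.7 TPM with miR-17 against 16.9 in the control, and POLD2 had 114.1 and 126.2 against 101.8 TPM. POLD3, the accessory subunit, lay between 3.7 and 4.6 TPM with no separation of the pairs.

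Replication protein A coats the single strands exposed at the fork, and its 3 subunits were the 1 group higher than the control in all 4 microRNA libraries without exception. RPA2 had 58.8 TPM in the control, 92.0 and 82.4 with native and methylated let-7a, and 63.5 and 64.0 with native and methylated miR-17. RPA3 had 11.8, 16.0, 14.9, 18.5 and 17.8 TPM. RPA1 had 58.8, 79.1, 77.2, 87.8 and 85.8 TPM. The order of the pairs was thus reversed in RPA2, where let-7a lay above miR-17 and miR-17 lay 1.08-fold and 1.09-fold above the control. RPA2 is the subunit whose 3′ UTR holds the miR-17 match printed above. Such matches were also found in genes higher than the control in both miR-17 libraries, among them GINS2, GINS4 and TIPIN. Whether the RPA2 match plays a part was not tested.

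The enzymes that join Okazaki fragments and remove uracil did not share a pattern. LIG1, the ligase of the lagging strand, had 11.9 TPM in the control, 10.2 and 8.7 with native and methylated let-7a, and 15.4 and 14.1 with native and methylated miR-17. UNG, the uracil glycosylase, had 85.7, 71.2, 78.0, 69.2 and 75.6 TPM with the control highest. FEN1, the flap nuclease, had 53.7 TPM in the control and no less than 48.6 TPM in any library, and its highest level was 1.11 times its lowest. LIG1 was 1 of the 5 genes at least 1.5-fold apart between the miR-17 and let-7a pairs.

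Nucleotide supply genes did not follow the helicase. RRM2 had 63.0 TPM in the control, 75.1 and 61.9 with native and methylated let-7a, and 49.5 and 51.6 with native and methylated miR-17. Its miR-17 values are the 2 lowest and its native let-7a value is the highest, and the gene has an 8mer match to each microRNA. RRM1, the partner subunit of ribonucleotide reductase, had 60.6 TPM with native let-7a and 48.1 to 50.9 TPM in the other libraries. TYMS, thymidylate synthase, had 70.9, 93.7, 79.0, 91.3 and 91.5 TPM, with the control lowest.

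Cyclin E activates CDK2 at the G1/S boundary, and its paralogs differed. CCNE2 had 4.7 TPM in the control, 2.3 and 2.1 with native and methylated let-7a, and 2.5 and 2.9 with native and methylated miR-17. All 4 microRNA libraries lay below the control, by 1.73, 1.84, 1.63 and 1.46 times in TPM + 1, at a level where rounding to 0.1 TPM is a visible share of the value. CCNE1 had 16.6, 18.1, 15.1, 17.4 and 18.6 TPM, with no separation of the libraries. SLBP, which binds the end of replication-dependent histone messenger RNAs, had 104.6 TPM in the control and 90.9 to 97.8 TPM with the microRNAs.

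Of the genes that protect or clear the fork, TIPIN, the partner of TIMELESS, had 7.0 TPM in the control, 8.8 and 8.7 with native and methylated let-7a, and 11.5 and 11.2 with native and methylated miR-17. TIMELESS itself had 30.8, 28.9, 28.7, 29.6 and 29.8 TPM, the narrowest range of the 54 genes. These partners therefore differed in their pattern, with the limit that TIPIN shares exonic bases with the pseudogene RPL9P25. DTL, which marks CDT1 for destruction in S phase, had 9.8 and 8.5 TPM with miR-17, against 6.7 in the control and 5.6 and 6.0 with let-7a. WDHD1 had 6.5 TPM in the control, 8.0 and 6.4 with let-7a, and 9.5 and 9.6 with miR-17. CLSPN, the mediator of CHK1 activation, had 3.6, 4.4, 3.1, 5.6 and 4.4 TPM, and its native let-7a value equalled its methylated miR-17 value.

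Setting the miR-17 libraries against the let-7a libraries leaves the control out. The 2 libraries of a microRNA received different oligonucleotides and are not replicates. For 36 of the 54 genes (66.7%) both miR-17 libraries lay above both let-7a libraries, against a background of 27.1% of all genes tested. For 3 genes, RFC1, RPA2 and RRM2, both lay below (5.56%, background 29.8%). The difference of the pair means had a median of 0.25, against -0.01 over all genes. At least 1.5-fold higher with miR-17 were 5 genes (GINS2, POLA1, MCM5, MCM2 and LIG1; 9.26%, background 3.25%) and 0 were lower by that much (background 4.71%). The median was 0.16 between the native libraries and 0.39 between the methylated ones, comparisons with no library in common. Across the 54 genes the differences in these comparisons had a Pearson correlation of 0.759, against 0.399 across all 14177 genes tested, as a description of these libraries.

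**Figure D3:**
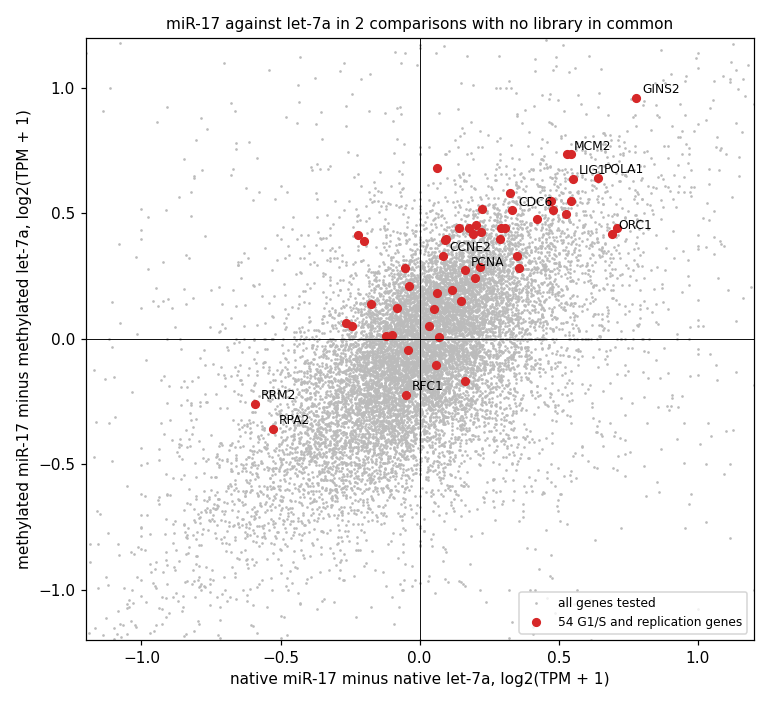
Each dot is a gene, with native miR-17 minus native let-7a on the horizontal axis and methylated miR-17 minus methylated let-7a on the vertical axis, both in log2(TPM + 1); genes beyond 1.2 on either axis are outside the frame. Of the 54 genes (red), 38 lie above 0 on both axes and 4 below 0 on both, with GINS2 at the upper right and RRM2 and RPA2 at the lower left. Of all 14177 genes tested, 4605 lie above 0 on both axes and 4944 below 0 on both.

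The control did not hold a middle place for all genes. It was below all 4 microRNA libraries for 16 of the 54 genes (29.6%, background 21.2%), among them CDC6, PCNA, the small RFC subunits, POLA1 and all of replication protein A. It was above all 4 for 7 genes (13.0%, background 26.5%): CDT1, DBF4, POLE, UNG, CCNE2, SLBP and TIMELESS.

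The methylated forms were compared with their native forms. With let-7a, 47 of 54 genes (87.0%) were lower with the methylated form, against 57.1% of all genes tested, and the median difference was -0.14 against -0.03. The direction was not particular to the 54. Of 83 other replication and G1/S genes, described below, 68 were lower and 13 higher, with a median of -0.13. The lower group included all 6 genes of the clamp and its loader, all 8 of helicase activation and all 3 of nucleotide supply, in the deposited scale and both other scalings. The largest differences were those of ORC6 (5.6 against 8.1 TPM), CDC45 (5.8 against 8.0 TPM) and CLSPN (3.1 against 4.4 TPM). With miR-17, the median difference was 0.00 against -0.09 over all genes. With its methylated form 28 genes were higher, 23 lower (42.6%, against 69.0% of all genes tested) and 3 equal. That split depended on the scale: it was 40 higher and 14 lower after subtracting the median of all genes, and 19 and 35 after rescaling without mitochondrially encoded genes. No gene of the 54 was 1.5-fold apart in either comparison (backgrounds 2.24% higher and 2.39% lower for let-7a, 1.57% and 2.72% for miR-17).

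**Figure D4:**
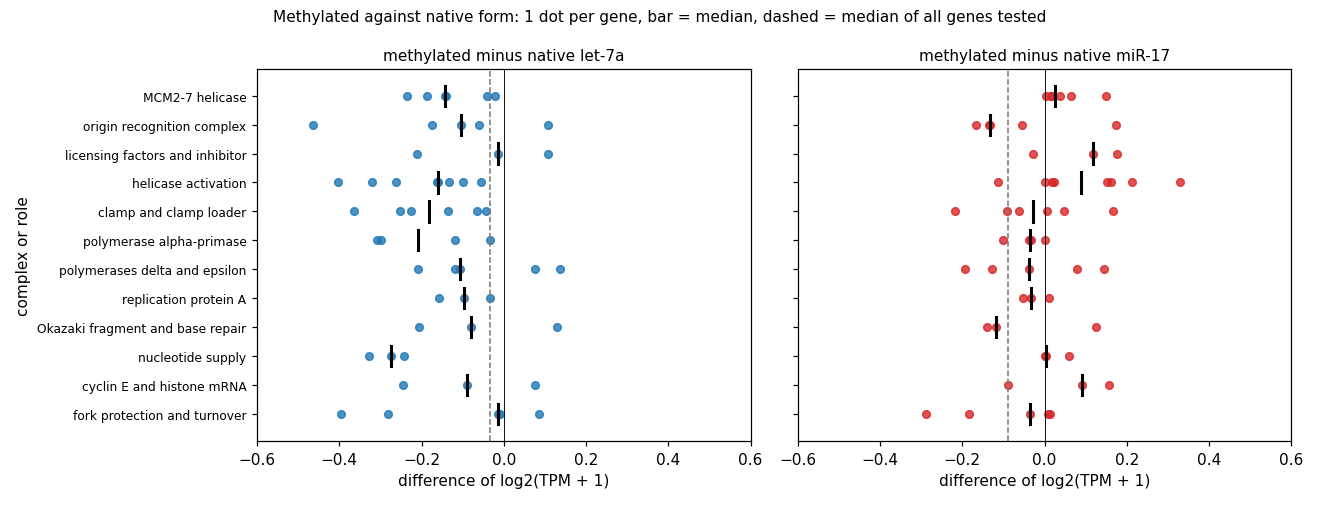
Difference of log2(TPM + 1) between the methylated and the native form for let-7a (left) and miR-17 (right), 1 dot per gene by complex or role, with a bar at the median of the group and a dashed line at the median of all genes tested. Most let-7a dots lie left of 0, at a median of -0.14, while the miR-17 dots lie on both sides, at a median of 0.00.

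The sequence features divide the 54 genes further, as a description. The 17 genes with a miR-17 match in any annotated 3′ UTR had a median difference from the control of 0.17 with native miR-17, and the 37 without had 0.39. Over all genes tested the same medians were -0.07 and 0.06. The 7 genes with a let-7a match in any annotated 3′ UTR had a median of -0.14 with native let-7a. The 47 without a match had 0.12. Over all genes tested these medians were -0.06 and 0.02. Of the 7, CCNE2 (-0.79), LIG1 (-0.20), POLE (-0.15) and DBF4 (-0.14) were lower than the control. PRIM2 (0.54), RRM2 (0.25) and RFC1 (0.01) were higher. An 8mer match to let-7a was found in POLE, PRIM2 and RRM2. The same 7 and 47 genes had medians of -0.10 and 0.34 with native miR-17, which the let-7a match does not pair with. Among the 7, however, CCNE2, DBF4, POLE and RRM2 also hold a miR-17 match in an annotated 3′ UTR. The matches to the 2 microRNAs are therefore not separated in that split, and their part was not tested. The 35 genes with an E2F match in a promoter window had a median gap between the miR-17 and let-7a pairs of 0.29, and the 12 without had 0.12. Over all genes tested those with and without the match had medians of -0.01 and -0.01.

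Other genes of the pathway, from a list of 86 further replication and G1/S genes, were read beside these. Of the 83 found by symbol and above the filter, 53 were higher and 28 lower than the control with native miR-17, with a median of 0.12, and 41 and 42 with methylated miR-17, with a median of 0.00. At 1.5-fold, 1 of the 83 was higher and 2 lower with native miR-17 (backgrounds 6.67% and 6.07%), and 3 were higher and 4 lower with methylated miR-17 (backgrounds 5.44% and 10.2%), all of them shares below the background. TK1, thymidine kinase of S phase, had 168.7 TPM in the control, 161.3 and 146.5 with native and methylated let-7a, and 258.7 and 272.6 with native and methylated miR-17. CHAF1B, a histone chaperone subunit, had 8.6 and 11.4 TPM with native and methylated miR-17 against 7.2 in the control. The polymerase delta subunit POLD4 and the histone chaperone SUPT16H were higher than the control in all 4 microRNA libraries, at 28.4 to 37.8 against 20.6 TPM and at 84.7 to 99.5 against 59.2 TPM. RIF1, which limits origin firing, had 7.8 and 6.6 TPM with miR-17 against 10.6 in the control. Of the 21 replication factors in that list, 11 were higher in the miR-17 pair than in the let-7a pair. Their median gap was 0.10, against 0.25 for the 54 genes.

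The 24 G1/S regulators tested within that list had another direction, with 9 higher and 15 lower with native miR-17 and a median of -0.18. With methylated miR-17, 4 were higher and 20 lower, with a median of -0.25. More of them were lower than higher with let-7a as well, 13 against 11 with the native form and 18 against 6 with the methylated form. CDKN1A, the CDK inhibitor p21, had 430.8 TPM in the control, 483.4 and 442.2 with native and methylated let-7a, and 187.6 and 190.7 with native and methylated miR-17. RBL2, the pocket protein p130, had 22.1, 19.6, 19.6, 11.6 and 11.8 TPM. CDKN2C, the CDK4 and CDK6 inhibitor p18, had 6.1, 6.3, 6.6, 4.6 and 3.7 TPM. In each of these the miR-17 libraries were the lowest, the opposite of the MCM2-7 genes in the same libraries; whether the levels are linked was not tested. E2F1, named after its values were seen, had 9.0 TPM in the control and 6.9 and 5.8 TPM with native and methylated miR-17.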

How the data were processed

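Isogen was used for the RNA and a stranded TruSeq kit with Ribo-Zero for the libraries, per the labels' protocols. The authors deposited 1 table of TPM values per gene, rounded to 1 decimal; the genome build was hg19, per the submitters' processing notes. Which aligner, counter and annotation were used is not given in the sources used here. Values were compared as differences of log2(TPM + 1), and only genes averaging 1 TPM or more over the 5 libraries entered; the pseudocount understates the change of low genes. A fold of 1.5 in TPM + 1 is a rule of size, not a test. The code was tested on simulated data (python 3.11.15, numpy 2.4.6, pandas 2.3.3). GENCODE release 29 uses another build and served for 3′ UTR sequences of at least 50 bases and for exon overlaps, with no coordinates; promoters and microRNAs come from RefSeq tables (GRCh38.p14), matched by symbol. Named with all 5 values were genes at least 1.5-fold from the control in any library, the highest and lowest of each complex with native miR-17, and CDC6, CDT1, GMNN, PCNA, RRM2, TYMS, CCNE1 and CCNE2; other members were named after their values were seen. The members, the further pathway list and the rules were chosen with earlier results of these data known. Of the 86 further genes, 84 were found by symbol and 83 passed the filter. Some 3′ UTR site sequences are not reported here. Alternatives were other pseudocounts, filters, scalings, references and folds.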

Additional observations from a re-analysis of the deposited data

Results flagged for a closer look

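Of the 54 genes, 10 lay below the control in both let-7a libraries and above it in both miR-17 libraries, a pattern held by 6.8% of all genes tested. The difference between the microRNAs was not tested, and all 4 differences share 1 control library. The gap between the pair means on the log2(TPM + 1) scale was 0.87 for GINS2, 0.59 for LIG1, 0.58 for DTL, 0.56 for ORC1, 0.50 for MCM4, 0.45 for GINS4, 0.32 for ORC5, 0.31 for POLD2, 0.31 for MCM3 and 0.25 for GMNN. For some of them native let-7a was hardly below the control, with log2 differences of -0.01 for MCM4, -0.02 for ORC5, -0.02 for POLD2 and -0.02 for MCM3. Small differences with miR-17 were 0.04 for ORC1 (methylated form) and 0.05 for GMNN (native form). The pattern also depended on the scale. Rescaled without mitochondrially encoded genes, ORC1 lay below the control with methylated miR-17. After the median of all genes was subtracted, MCM4 was not below the control with methylated let-7a.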

How the results depend on the processing

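No paired analysis was possible because each group holds 1 library, and for the same reason no library of a group could be left out. Of 55 alternative values of the median difference of the 54 genes, 52 moved by under 0.1 on the log2 scale. Some of these could not move. All 54 genes passed the filter, so leaving the filter out changed none of their medians. For native let-7a the median of all genes was 0.0, so subtracting it changed nothing. Measured from the mean of the 2 miR-17 libraries instead of the control, the median was -0.17 for native let-7a (0.12 from the control). For methylated let-7a it was -0.34 (-0.04 from the control). By construction these values restate the gap between the microRNAs with its sign turned, so they are not a separate check. Why the microRNAs differ was not tested. Between the miR-17 and let-7a pairs the median was 0.39 from the methylated libraries alone, a setting added after the data were seen. Counts at the fold rule moved more. A pseudocount of 5 left 1 gene apart for native let-7a (of 3), 0 for its methylated form (of 1), 3 for each form of miR-17 (of 10) and 1 between the pairs (of 5, and 8 with a pseudocount of 0.1). A 2-fold rule left 0 genes in each of these comparisons. From the other microRNA, the let-7a forms had 5 (native) and 6 (methylated) genes apart and the miR-17 forms 6 and 5. For methylated let-7a, 0 were apart at a mean of at least 5 TPM or without genes holding a seed match, and without such genes 3 of 34 were apart between the pairs. At low TPM, rounding to 1 decimal limits the precision.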
